A study of Mus musculus with 4 samples.

Results

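The Notch receptors, ligands and targets examined here are 10 genes. They are the receptors Notch1, Notch2 and Notch4, the ligands Jag1, Jag2, Dll1 and Dll4, the target genes Hes1 and Hey1, and Rbpj, the DNA-binding factor of the pathway. They were taken by gene symbol from the authors' deposited table, in which 35605 of 37996 features had a p-value. All 10 had a label among the tested features. The labels in that table are out of step with the rows of values, so each label was placed again on the feature it belongs to. A gene was read only where its label had a posterior probability of at least 0.95 on a single feature. This held for 7 of the 10. The labels of Rbpj, Jag2 and Dll1 reached only 0.931, 0.938 and 0.814, so no level or fold is given for them. They count only as called or not called, where at least 0.95 of the probability of a label lay on 1 side.

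The series compares cells sorted by flow cytometry from fetal liver (2 libraries) with cells sorted from adult bone marrow (2 libraries), all from C57BL/6 mice. Every library was made as cDNA with a low-input SMARTer kit from total RNA. The labels give no treatment, transgene or age beyond fetal and adult, and how the cells were gated in the sort is not stated there. The labels do not tell whether different animals gave the 2 libraries of a group. The p-values therefore reflect the spread between these libraries alone, which may be technical.

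Notch receptors sit on the cell surface and are activated by Jagged and Delta-like ligands on neighbouring cells. Ligand binding leads to cleavage by ADAM10 and then by the gamma-secretase complex, and the freed intracellular domain enters the nucleus, where it joins RBPJ and Mastermind-like proteins and switches on genes of the Hes and Hey families. In the developing liver the pathway is known for Jagged1 and Notch2 in bile duct formation, and in vessels for Delta-like 4 in arteries and for Notch3 in mural cells, the pericytes and smooth muscle cells of the vessel wall.

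Jag1 and Dll4, the ligands of the set with readable values, are both on mouse chromosome 2, and their levels lay in opposite directions between the groups. For that reason the 250 bases before the RefSeq start of each are shown, 5′ to 3′ on the gene's strand (RefSeq, build GRCm38.p6). The Jag1 window is chr2:137116521-137116770 on the minus strand and the Dll4 window is chr2:119325534-119325783 on the plus strand.
Jag1: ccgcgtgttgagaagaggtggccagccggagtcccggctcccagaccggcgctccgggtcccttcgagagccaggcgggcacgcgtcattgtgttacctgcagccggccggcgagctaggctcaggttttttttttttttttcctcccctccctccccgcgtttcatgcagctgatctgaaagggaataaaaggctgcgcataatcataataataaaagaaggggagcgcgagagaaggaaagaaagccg
Dll4: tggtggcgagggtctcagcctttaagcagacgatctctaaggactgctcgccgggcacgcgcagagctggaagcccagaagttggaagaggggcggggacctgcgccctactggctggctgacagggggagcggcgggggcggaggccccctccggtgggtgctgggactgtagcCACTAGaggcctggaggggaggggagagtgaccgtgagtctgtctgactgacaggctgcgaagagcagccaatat
The capitals mark the only match in the pair of windows to either of 2 motifs that were searched on both strands. The first motif was the RBPJ core TGGGAA. The second was the N box, a site of Hes repressors, written CACNAG with N for any base. Dll4 held the N box CACTAG, 75 bases before the start, and Jag1 held neither motif. Among all 32851 promoter windows of this length, 21.6% held the RBPJ core and 36.7% the N box. A promoter sequence was found for 8 of the 10 genes. The target genes Hes1 and Hey1 had none and were not searched. Of the 8 genes, Rbpj held the RBPJ core, and Notch1, Notch2 and Dll4 held an N box, and no window held both motifs. A match is a run of letters and does not show binding.

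Summed over features whose mean was at most 10000 normalized reads, the fetal liver libraries held 2546089 and 868246 recovered reads and the bone marrow libraries 858720 and 223361. The 2 libraries of each group are told apart by depth alone, as the deeper and the shallower, since nothing in the table links them to a replicate number. The median absolute log2 difference between the libraries of a group was 0.50 in fetal liver and 0.52 in bone marrow, over features averaging at least 10. The mural list, 10 genes, had 9 placed. Their sum was 1912 and 3656 normalized reads in the deeper and shallower fetal liver libraries, against 1014 and 640 in bone marrow. Much of it came from single genes. Cspg4, which lay lower in both fetal liver libraries, made 404 and 420 in fetal liver and 853 and 437 in bone marrow. Acta2 made 267 and 1578 in fetal liver and 8.78 and 34.3 in bone marrow. The endothelial list, with 10 of 12 placed, summed to 236 and 297 in fetal liver and to 318 and 266 in bone marrow. The arterial list, with 4 of 7 placed, summed to 25.8 and 57.1 in fetal liver and to 74.3 and 91.5 in bone marrow. Hepatoblast and biliary genes (8 of 10 placed) summed to 1044 and 1416 in fetal liver and to 657 and 6885 in bone marrow, of which Spp1, also an osteolineage gene, made 572 and 6771 in bone marrow. Of the 10 hepatoblast and biliary genes, 2 were called higher and none lower, beside 4.12% and 0.129% of all tested features. These were Alb and Afp. Alb had 220 and 268 normalized reads in fetal liver and 11.5 and 11.4 in bone marrow. Afp had 260 and 285 in fetal liver and 18.2 and 2.86 in bone marrow. Of the 8 placed, 4 lay higher in both fetal liver libraries. The other 4, Krt8, Krt19, Spp1 and Epcam, overlapped between the groups. Blood genes (10 of 14) summed to 79.2 and 147 against 403 and 123, and osteolineage and marrow stroma genes (7 of 8) to 1968 and 5277 against 1073 and 12381, each with fetal liver before bone marrow. No placed marker was at 0 in both libraries of a group.

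Jag1, which encodes the ligand Jagged1, was the only one of the 10 genes called different between the groups. It rose in fetal liver cells by the authors' adjusted p-value. None of the 10 was called lower. Dll4 and Notch4 lay lower in both fetal liver libraries than in both bone marrow libraries and Hes1 lay higher, none of them past the authors' threshold. Notch1, Notch2 and Hey1 had overlapping values. Among all features that averaged 10 or more, 37.3% lay above in both fetal liver libraries and 26.4% lay below in both. Across the authors' deposited table, an adjusted p under 0.05 was reached by 4.12% of tested features in the direction of higher in fetal liver and by 0.129% in the direction of lower. At an unadjusted p under 0.05, Jag1 and Hes1 of the 7 placed genes were higher and Dll4 was lower, beside 8.69% and 2.40% of all tested features. Shares of all tested features, here and elsewhere, are not like for like. Only 16526 of the 35605 averaged at least 10, as all 7 placed genes did. The 7 placed genes had a median log2 ratio of 0.09 in the authors' group means, against -0.19 over 30884 tested features with reads in both groups and 0.11 over the 16517 of these with a mean of at least 10. Because these are bulk samples, fewer cells of a type and less RNA per cell cannot be told apart.

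Single-library values are normalized reads, that is, reads scaled by the authors' size factors, recovered from the authors' group means. Jag1 (ENSMUSG00000027276) had 176 and 297 normalized reads in the deeper and shallower fetal liver libraries, against 58.1 and 74.3 in the deeper and shallower bone marrow libraries. Both fetal liver libraries were above both bone marrow libraries. These values rested on 464 and 250 reads in fetal liver and on 86 and 26 reads in bone marrow. In the authors' deposited table Jag1 averaged 237 in fetal liver and 66.2 in bone marrow, 3.57-fold higher in fetal liver (authors' adjusted p = 0.0215). A second test, limma with a trend of variance against mean, fitted to log2(normalized reads + 1), gave a log2 difference of 1.78 ± 0.44 (SE, 2 libraries per group, Benjamini-Hochberg adjusted p = 0.00781). Across all features fitted, limma called 19.2% higher and 2.87% lower. A limma fit without 1 library leaves 1 group with a single library, which is assumed to vary like the pair of the other group, so its p-value depends on that pair alone and on the trend over all features. The Jag1 call by limma was lost without the shallower fetal liver library (adjusted p = 0.102), and over all alternatives tried the adjusted p ran from 8.33e-07, with a single bone marrow library, to 0.102. Without single libraries the fold ran from 2.66 to 4.49. Of the 9 placed mural markers, 7 also lay higher in both fetal liver libraries and 2 lay lower in both, and their part in the Jag1 values was not tested.

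Dll4 (ENSMUSG00000027314), a Delta-like ligand of vascular endothelium, had 8.34 and 14.3 normalized reads in the fetal liver libraries (22 and 12 reads), against 43.2 and 28.6 in the bone marrow libraries (64 and 10 reads). Both fetal liver libraries were below both bone marrow libraries. In the authors' deposited table Dll4 averaged 11.3 in fetal liver and 35.9 in bone marrow, 3.18-fold lower in fetal liver, and it was not called (authors' adjusted p = 0.215). By limma the log2 difference was -1.60 ± 0.55 (SE, 2 libraries per group) with an adjusted p of 0.0479, just under the threshold, and over the alternatives the adjusted p ran from 0.0322 to 0.324. The limma call was lost without the deeper fetal liver library (adjusted p = 0.145), without the deeper bone marrow library (0.324) and without the shallower one (0.0816). Of the 4 placed arterial endothelial markers, Gja4 and Bmx overlapped between the groups, and Gja5 and Sox17 lay lower in both fetal liver libraries, at 7.96 and 14.3 against 27.7 and 37.2 normalized reads for Gja5 and at 7.96 and 15.5 against 27.0 and 40.0 for Sox17, fetal liver before bone marrow. Of the 7 arterial genes, Nrp1, which was not placed, was called higher by the authors' adjusted p-value and none was called lower. By the same test Tie1 of the 12 endothelial genes was called lower and none higher. Beside these stand 4.12% of all tested features called higher and 0.129% lower. Limma called Nrp1 and the unplaced Emcn higher and Tie1 lower. Its shares over all features fitted were 19.2% higher and 2.87% lower. Among the 10 endothelial genes placed, 3 lay higher in both fetal liver libraries, 4 lay lower in both and 3 overlapped. Their part in the Dll4 values was not tested.

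The balance between the ligands does not depend on how libraries are scaled. Jag1 took 95.5% of the summed Jag1 and Dll4 reads in the deeper fetal liver library (464 of 486, 95% exact Clopper-Pearson interval 93.2% to 97.1%) and 95.4% in the shallower (250 of 262, 92.1% to 97.6%). In bone marrow it took 57.3% in the deeper library (86 of 150, 49.0% to 65.4%) and 72.2% in the shallower (26 of 36, 54.8% to 85.8%). The intervals of the fetal liver libraries lay above those of the bone marrow libraries, and they cover counting error only. Per kb of exon, the level of Jag1 was 13.9 and 13.8 times that of Dll4 in the deeper and shallower fetal liver libraries, against 0.888 and 1.72 times in bone marrow. With 2 libraries against 2 the two-sided exact permutation p was 0.333, the smallest this design allows. This ratio was chosen after the values were seen.

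**Figure D1:**
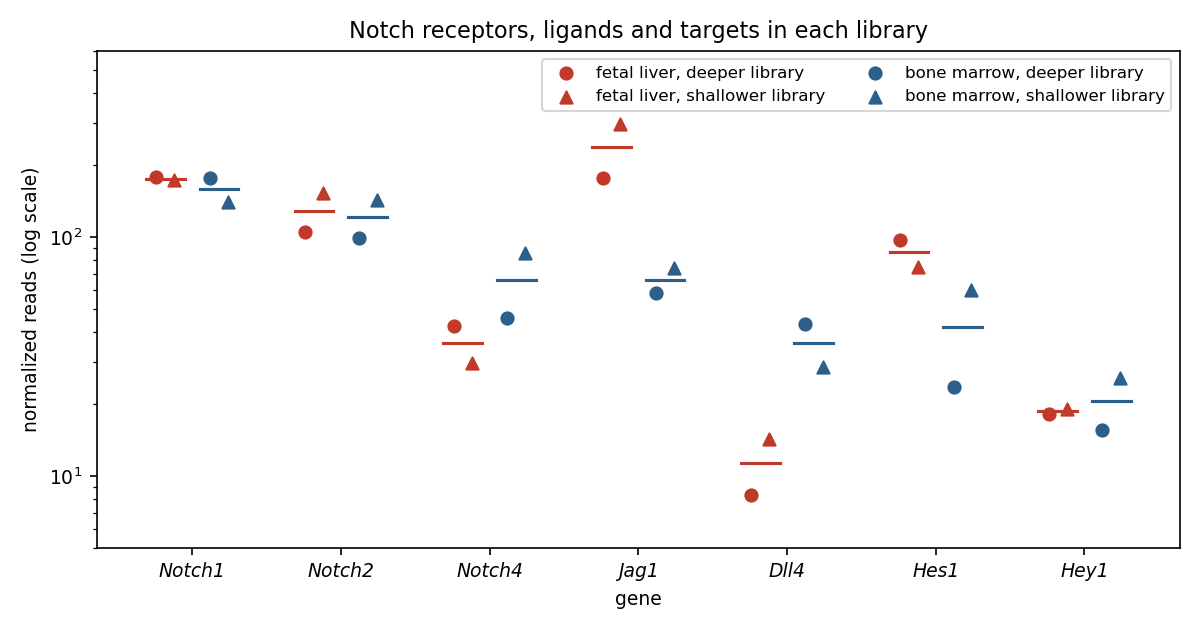
Normalized reads (log scale) of the 7 placed genes in each library, fetal liver at left in red and bone marrow at right in blue, with circles for the deeper and triangles for the shallower library of a group and lines for the authors' group means. Jag1 and Hes1 lie higher in both fetal liver libraries, Dll4 and Notch4 lie lower in both, and Notch1, Notch2 and Hey1 overlap.

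Jag2 and Dll1, the other Jagged and Delta-like ligands of the set, have no value here. No feature that held over 1% of the probability of either label was called, with authors' adjusted p-values of 0.966 and 0.721 at those features in the authors' deposited table. Dll3, a divergent Delta-like protein that is not among the 10, had 19.3 and 33.3 normalized reads in fetal liver and 20.3 and 54.3 in bone marrow, which overlap (adjusted p = 1 in the authors' deposited table).

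Among the receptors, no gene was called. Notch1 (ENSMUSG00000026923), the receptor needed for the first definitive blood stem cells, had 177 and 172 normalized reads in the fetal liver libraries and 176 and 140 in the bone marrow libraries. Notch2 (ENSMUSG00000027878), the receptor of bile duct formation, had 105 and 152 in fetal liver and 98.6 and 143 in bone marrow. The groups overlapped for both, and in the authors' deposited table the adjusted p was 1 for each. By limma, the log2 differences of Notch1 and Notch2 were 0.16 ± 0.45 and 0.09 ± 0.43 (SE, 2 libraries per group), and both turned negative under TMM scaling, at -0.03 and -0.10.

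Notch4 (ENSMUSG00000015468), a receptor of endothelial cells, had 42.4 and 29.7 normalized reads in fetal liver and 45.9 and 85.8 in bone marrow. Both fetal liver libraries were below both bone marrow libraries, by little between the deeper libraries of each group. Its mean in the authors' deposited table was 36.1 in fetal liver and 65.9 in bone marrow (authors' adjusted p = 1). The limma log2 difference was -0.80 ± 0.43 (SE, 2 libraries per group, adjusted p = 0.197, with 0.0598 to 0.818 over the alternatives).

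Notch3, the receptor known from mural cells and the remaining mammalian receptor, is not among the 10 and is given from the wider pathway list. It had 128 and 147 normalized reads in fetal liver against 58.1 and 80.1 in bone marrow, with no overlap. Its authors' adjusted p was 0.429 in the authors' deposited table, and its limma adjusted p of 0.0885 ran from 0.00976, without the shallower bone marrow library, to 0.302 over the alternatives. Of the 10 mural markers, 5 were called higher by the authors' adjusted p-value and none lower, beside 4.12% and 0.129% of all tested features. Among the 5 was Rgs5, at 255 and 201 normalized reads in fetal liver against 11.5 and 11.4 in bone marrow. Of the 9 mural markers placed, 7 lay higher in both fetal liver libraries and 2, Cspg4 and Des, lay lower in both. The part of the mural markers in the Notch3 values was not tested.

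Levels per kb of exon set the receptors side by side within a library, but only roughly. The length used is that of all annotated exons of a gene, which need not match the transcripts expressed, and the shares depend on it. Notch3 held 36.7% and 37.9% of the summed receptor level in the fetal liver libraries, against 20.9% and 22.7% in the bone marrow libraries. Notch4 held 12.2% and 7.66% in fetal liver, against 16.6% and 24.4% in bone marrow. The shares of both genes did not overlap between the groups. Notch1 held 28.8% and 25.2% in fetal liver and 35.9% and 22.6% in bone marrow, and Notch2 held 22.4% and 29.3% in fetal liver and 26.6% and 30.4% in bone marrow. Notch1 and Notch2 shares overlapped. The shares are given as a description, without a test.

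**Figure D2:**
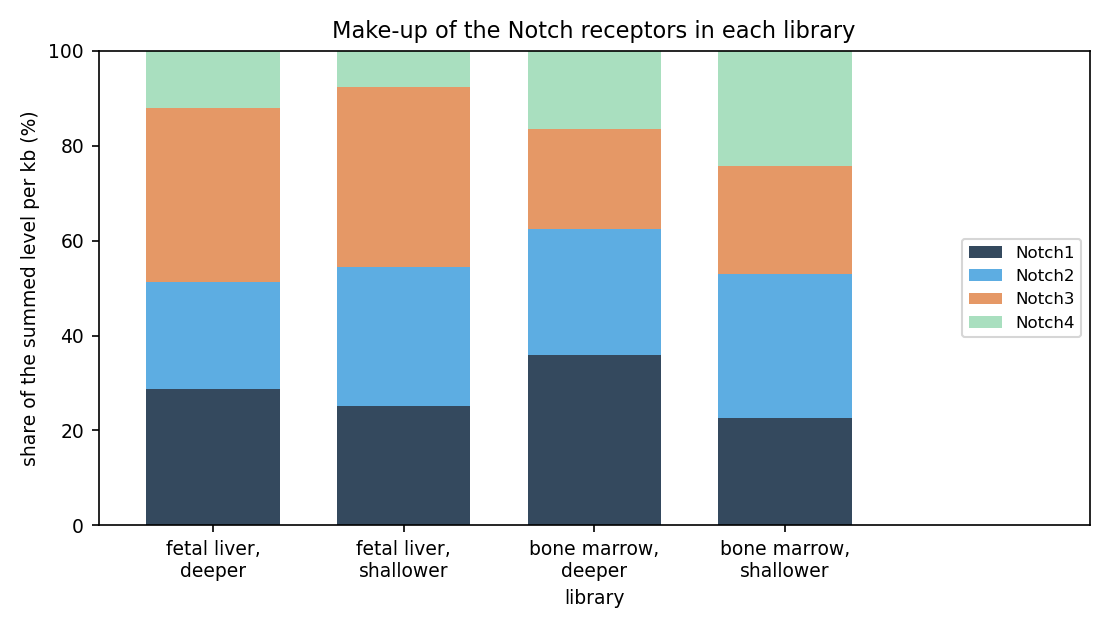
Share (%) of Notch1, Notch2, Notch3 and Notch4 in their summed level per kb of exon in each of the 4 libraries, with fetal liver at left. The Notch3 band takes 36.7% and 37.9% in fetal liver against 20.9% and 22.7% in bone marrow.

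Hes1 (ENSMUSG00000022528), a transcriptional repressor and the classic Notch target, had 97.0 and 74.9 normalized reads in the fetal liver libraries (256 and 63 reads), against 23.6 and 60.05 in the bone marrow libraries (35 and 21 reads). Both fetal liver libraries were above both bone marrow libraries, and the bone marrow libraries differed more from each other than those of fetal liver. In the authors' deposited table the means were 86.0 in fetal liver and 41.8 in bone marrow, a fold of 2.05 (authors' adjusted p = 0.413). The limma log2 difference was 1.15 ± 0.46 (SE, 2 libraries per group, adjusted p = 0.0833, with 0.000967 to 0.467 over the alternatives). The fold was 3.64 without the shallower bone marrow library, and 1.43 without the deeper one. The limma adjusted p of 0.000967 comes from the fit without the shallower library, in which the spread within bone marrow no longer enters.

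Hey1 (ENSMUSG00000040289), a related repressor of the Hey family, had 18.2 and 19.0 normalized reads in fetal liver and 15.5 and 25.7 in bone marrow. The fetal liver values lay between those of bone marrow. Its limma log2 difference was -0.10 ± 0.55 (SE, 2 libraries per group, adjusted p = 0.911, with 0.729 to 0.989 over the alternatives). Hey2, another Hey repressor and not among the 10, had 40.9 and 130 normalized reads in fetal liver against 10.8 and 5.72 in bone marrow, where it rested on 16 and 2 reads. It was not called in the authors' deposited table (adjusted p = 0.281), while limma called it higher, with a log2 difference of 3.05 ± 0.58 (SE, 2 libraries per group, adjusted p = 0.00124, with 9.50e-08 to 0.138 over the alternatives). The Hey2 fold was 10.3 in the authors' group means, 15.7 without the deeper and 4.95 without the shallower fetal liver library. Its label held a posterior of only 0.878 under a coarser placement score. Nrarp, a target that damps Notch signalling, had 18.6 and 15.5 in fetal liver and 18.9 and 28.6 in bone marrow (adjusted p = 1 in the authors' deposited table).

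Rbpj has no value here. The features that held over 1% of the probability of its label had authors' adjusted p-values of 0.0913 in the authors' deposited table and were not called. By limma, at least 0.95 of its probability lay on features called higher in fetal liver.

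**Figure D3:**
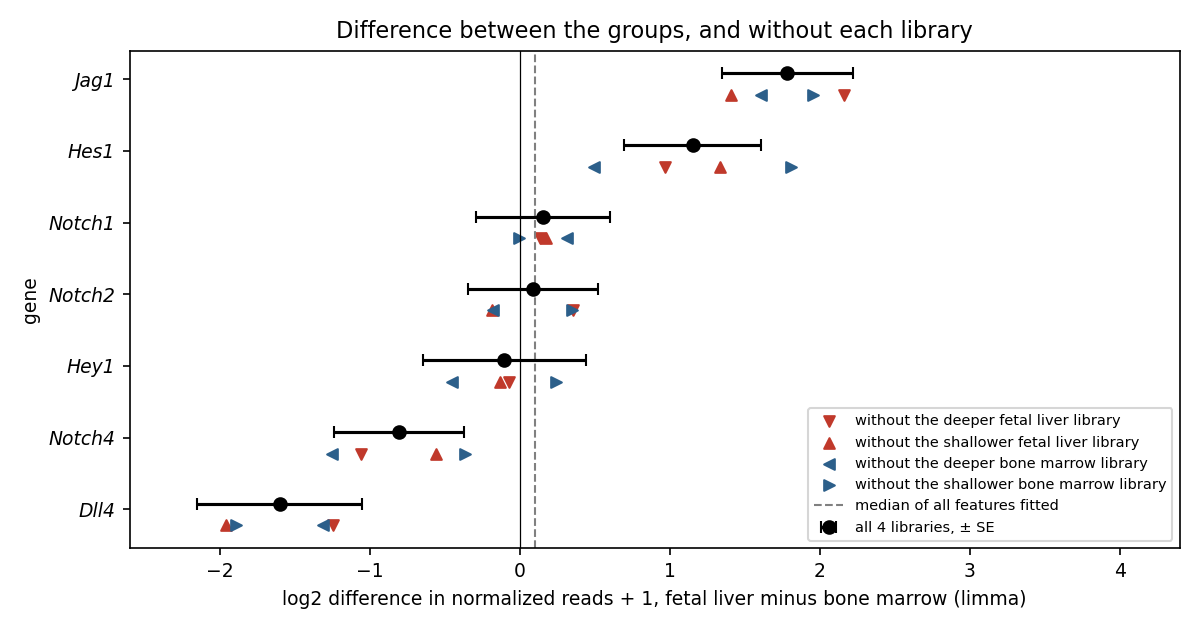
Log2 difference in normalized reads + 1, fetal liver minus bone marrow, of the 7 placed genes, with black points and bars for the limma estimate ± SE and triangles for the estimate without each library in turn. The dashed line is the median of all 16501 features fitted, 0.11. Jag1, Hes1, Notch4 and Dll4 keep their direction without any single library, and Notch1, Notch2 and Hey1 lie on both sides of 0.

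Levels of different genes were compared per kb of exon in the authors' group means, so their order depends on the exon lengths used. In fetal liver, Hes1 (42.2 normalized reads per kb) and Jag1 (40.6) stood highest, and their libraries overlapped. Notch1 (12.3) and Notch2 (11.9) followed, also overlapping, and then Hey1 (5.70), Notch4 (4.48) and Dll4 (2.93). Both libraries of Jag1 were above those of Notch1, both of Notch2 were above those of Hey1, and both of Hey1 were above those of Notch4. Notch4 and Dll4 overlapped. In bone marrow no gene stood apart from the next lower in the order Hes1 (20.5 per kb), Jag1 (11.4), Notch2 (11.2), Notch1 (11.1), Dll4 (9.32), Notch4 (8.17) and Hey1 (6.32). Dll4 was the lowest of the 7 in fetal liver, and it stood above Notch4 and Hey1 in the order of bone marrow.

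The genes nearest to Jag1 in level over the 4 libraries, among 11981 placed genes with a mean of at least 10, were Rrbp1, a ribosome-binding protein of the endoplasmic reticulum, Myh10, a non-muscle myosin heavy chain, and Trpm7, an ion channel with a kinase domain. Their distances from Jag1, the root of the summed squared differences in log2(normalized reads + 1), were 0.20, 0.32 and 0.39. Rrbp1 had 191 and 276 normalized reads in fetal liver against 56.8 and 68.6 in bone marrow.

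In the rest of the pathway, a list of 42 genes, 3 were called higher in fetal liver and none lower by the authors' adjusted p-value, and 1 was open, beside 4.12% of all tested features called higher and 0.129% lower. With limma 8 were called higher and none lower, which for higher is close to the 19.2% of all features fitted. At the authors' unadjusted p under 0.05, 6 placed genes were higher and none was lower, beside 8.69% and 2.40% of all tested features. Every placed gene of the list averaged at least 10, while only 16526 of the 35605 tested features did. An excess over these shares can therefore not be read from the counts. Of the 32 genes placed, 12 lay higher in both fetal liver libraries, 6 lay lower in both and 14 overlapped, against 37.3% above and 26.4% below among all features that averaged 10 or more. The 32 had a median log2 ratio of 0.28.

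The proteases that cut the receptor held 1 call among 8 genes by the authors' adjusted p-value and 2 by limma, beside 4.12% and 19.2% of all features called higher. Adam10, the protease of the first cut, had 128 and 122 normalized reads in fetal liver against 25.7 and 51.5 in bone marrow, with no overlap. It was 3.25-fold higher in the authors' deposited table (adjusted p = 0.0218), and its fold was 4.88 without the shallower and 2.43 without the deeper bone marrow library. Ncstn, which encodes the gamma-secretase subunit nicastrin, had 89.0 and 107 in fetal liver against 25.7 and 20.02 in bone marrow. Its authors' adjusted p was 0.0702 in the authors' deposited table, and limma called it higher (adjusted p = 0.00162, with 2.78e-05 to 0.0330 over the alternatives).

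Among 11 genes of endocytosis and ubiquitin transfer, Dtx3 was the only call by the authors' adjusted p-value, and limma called 3 higher. The shares of all features called higher were again 4.12% and 19.2%. Dtx3, of the Deltex family of ubiquitin ligases, had 149 and 63.0 normalized reads in fetal liver against 14.9 and 17.2 in bone marrow. It was 6.63-fold higher in the authors' deposited table (adjusted p = 0.0247). Leaving out the deeper fetal liver library gave a Dtx3 fold of 3.94, and leaving out the shallower gave 9.33. Itch, another ubiquitin ligase, had 140 and 302 in fetal liver against 48.0 and 71.5 in bone marrow. It was not called in the authors' deposited table (adjusted p = 0.202), while limma called it higher (adjusted p = 0.0102, with 3.34e-07 to 0.136 over the alternatives, the highest without the shallower fetal liver library). The fold of Itch was 3.70, and 2.35 when that library was left out.

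Dlk1, an imprinted gene for a membrane protein that resembles Delta ligands, was called higher although its label could not be placed on a single feature. At least 0.95 of its probability lay on features higher in fetal liver, and those that held over 1% of it had an adjusted p of at most 2.72e-11 in the authors' deposited table. Heyl, the remaining Hey gene, was open, because its label fell between features called in opposite directions. Hes5 and Hes7, also Hes family repressors, were neither placed nor called. None of the 5 glycosyltransferase genes, which modify the receptors, none of the 9 nuclear cofactor genes and not Rbpjl was called by the authors' adjusted p-value. Of all tested features, 4.12% were called higher and 0.129% lower. With shares this low, no call among so few genes says little about these roles. Limma also called Mib1, which encodes a ubiquitin ligase for Notch ligands, and the cofactor gene Snw1 higher, both without a value because their labels were not placed.

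**Figure D4:**
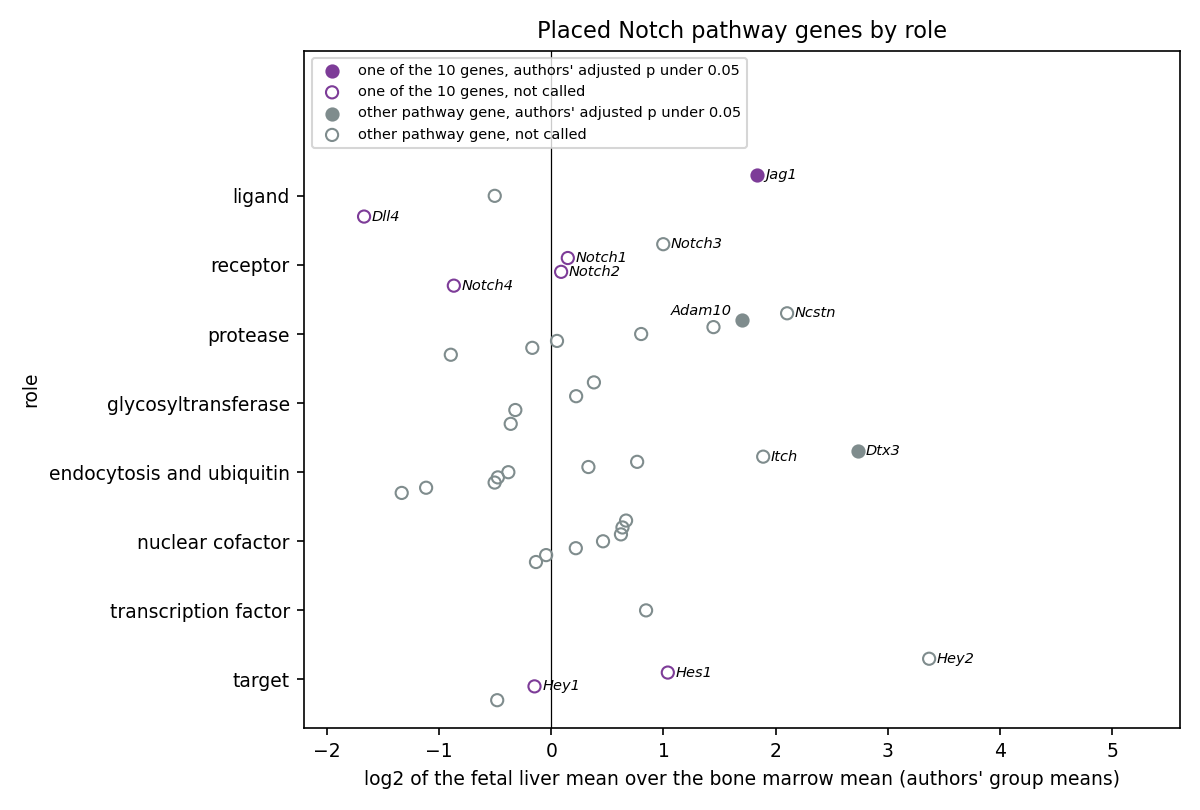
Log2 of the fetal liver mean over the bone marrow mean for the 7 placed genes (purple) and the 32 other placed pathway genes (grey), by role, with filled points for an authors' adjusted p under 0.05. Genes at an unadjusted p under 0.05 and the 7 genes are named. The filled points are Jag1, Adam10 and Dtx3.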

How the data were processed

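RNA from sorted cells of fetal liver (2 libraries) and bone marrow (2 libraries) was sequenced, and the groups follow the sample titles. The submitters' processing notes name GSNAP, HTSeq, DESeq and the build mm9 and give no versions. What the authors deposited is a single table of the comparison. Per the file headers, its signal columns hold the mean of normalized reads in each group. The fold column is, per the file headers, a ratio with fetal liver on top. Its p-value columns, raw and adjusted, were computed by the authors. Annotation, filters and strand use in counting are not stated in the labels, so reads of overlapping antisense genes cannot be told apart. The authors' log2 column was left unused.

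The 10 genes, the pathway and marker lists and the tests were chosen with earlier results of these data known. The table is sorted by p-value. Its 33465 gene labels are closed up at the top, and 4531 features at the bottom carry none. A hidden Markov model that kept the label order gave each label back to a feature. It used the order of identifiers among equal values (error rate 0.001) and a score trained with LightGBM 4.6.0 in 5 folds. The score weighed the level of a feature and its direction between the groups. Both were set against a prediction from gene structure (GENCODE M21 and RefSeq) and from other genes with a similar symbol. The direction reported for a gene is therefore not fully independent of how its label was placed. Settings of the score were chosen on held-out labels after seeing the data. The posterior reached 0.95 for 17683 of the 32237 labels that belong to tested features. Every gene value taken from the deposited table comes from the feature to which its label was assigned. A gene was called where at least 0.95 of its probability lay on features with an authors' adjusted p-value under 0.05 in 1 direction, and open where the outcome reached neither side.

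A group mean adds up whole reads from 2 libraries, each times the value of 1 read (0.379 and 1.19 in fetal liver, 0.676 and 2.86 in bone marrow), which allowed the reads of each library to be recovered. A single solution existed for 35580 of 35582 fetal liver features and 35585 of 35585 bone marrow features with means up to 10000. With a wrong value of 1 read, 15.2% and 20.7% of low features still had a solution. On these reads limma 3.58.1 (R 4.3.3) was fitted to the 16501 features averaging at least 10, among them all 7 placed genes, with Benjamini-Hochberg adjustment. Levels per kb used the summed exon length of GENCODE M21, which need not match the transcripts expressed or the annotation used in counting. Placement, recovery of reads and limma were run on simulated data. The simulated labels came from placements that the model itself held more likely than not. Of them 61.6% were placed, and 99.4% of the placed ones were right. This cannot show that the real labels are placed rightly. Named pathway genes are every call, every placed gene at an unadjusted p under 0.05 and every placed receptor, ligand, Hes, Hey or Nrarp gene. Other genes named, such as the unplaced limma calls and single markers, were chosen after their values were seen. For each called gene of the 10, the 3 nearest genes are named. Alternatives changed the features adjusted over, the test, the pseudocount (1 or 4), the scaling, the library left out and the placement.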

Additional observations from a re-analysis of the deposited data

How the results depend on the processing

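When only features averaging at least 10 entered the adjustment of the authors' p-values, 1817 features were higher and 83 lower, and of the Notch genes 2 of the 10 (Jag1 and the unplaced Rbpj) and 6 of the 42 others were higher. Limma on recovered reads called 3172 features higher and 474 lower, 3377 and 645 with a pseudocount of 4, and 2705 and 751 with TMM scaling, against 1467 and 46 by the authors' adjusted p-value. In each of these 3 fits 2 of the 10 were higher (Jag1 and Rbpj), 1 was lower (Dll4) and 8 of the 42 others were higher. TMM scaling moved the median log2 difference of all features from 0.11 to -0.07, and Jag1 and Dll4 then stood at 1.60 and -1.77. In limma without each library in turn, features higher ran from 2254 to 3413 and lower from 196 to 687, the 10 genes from 1 to 3 higher and from 0 to 1 lower, and the 42 others from 6 to 9 higher. With each label put on the feature of highest probability, 1 of the 42 (Heyl) was lower. The median log2 ratio of the 7 placed genes ran from -0.18 to 0.26 without single libraries. With labels left where they stand in the table, Jag1 was still the only call, but the folds beside the labels were 2.74 for Dll4, 0.167 for Hes1 and 0.245 for Notch2. Under the coarser score Notch1 reached a posterior of only 0.934, on the same feature. The cause of these moves was not tested. No paired analysis was possible because the groups share only replicate number 2 in the titles and the table's columns carry no replicate. Depth limits the low genes most: Dll4 had 10 reads, Hey1 9 and Hey2 2 in the shallower bone marrow library.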
